A study of Homo sapiens with 6 samples.

Results

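Colony-stimulating factors are the cytokines that keep macrophages, dendritic cells and granulocytes alive and dividing, and 9 genes of this system were examined in LX-2, an established line of human hepatic stellate cells. The members were chosen by gene symbol: the ligands CSF1, CSF2, CSF3 and IL34, the receptor genes CSF1R, CSF2RA, CSF2RB and CSF3R, and IL16, a chemoattractant cytokine. All 9 were found once each among the 60748 genes of the table. RNA sequencing was performed on LX-2 cells that carried an empty vector (LX-2Vector, 3 libraries) and on LX-2 cells that stably overexpressed fibroblast activation protein α, FAPα (LX-2FAP, 3 libraries), and the comparison asked which secreted factors differ with FAPα. Both lines were grown in DMEM with fetal bovine serum and antibiotics and cultured for 24 h, and neither received any other agent per the labels. Per the methods, FAPα was delivered by a lentivirus in which a ubiquitin promoter drives the insert beside EGFP and a puromycin resistance gene, the control carried the corresponding vector, and stable clones were selected with puromycin. How many separate infections or clones stand behind each line is not given in the sources used here, so a property of the clones and an effect of FAPα cannot be told apart.

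CSF1, also called M-CSF, and IL34 are unrelated in sequence but bind the same receptor tyrosine kinase, CSF1R, on monocytes and macrophages. CSF2, or GM-CSF, binds an α chain (CSF2RA) that pairs with the β-common chain (CSF2RB), which is shared with the receptors of IL3 and IL5 and signals through JAK2 and STAT5. CSF3, or G-CSF, acts on neutrophils and their precursors through CSF3R. IL16 is made as a long precursor, and its C-terminal part is a ligand of CD4. Stromal cells and fibroblasts are known sources of CSF1 in most tissues and make CSF2 and CSF3 when stimulated, and the receptors are mainly genes of myeloid cells.

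Each library held between 17355700 and 26352060 counts in total. FAP itself had 42 to 55 counts in the LX-2Vector libraries and 14805 to 15160 in the LX-2FAP libraries, as labelled. On the first principal component of log2 CPM (35.2% of the variance) LX-2FAP replicate 1 lay nearest to the controls. Stellate and mesenchymal markers were present (10 of 10 tested, led by VIM, with 143 reads in total for COL1A2, the scarcest), and their summed CPM was 2177 to 2396 in the controls and 2186 to 2355 with FAPα. VIM made up most of that sum and rose (1545 CPM on average in the controls, 1695 with FAPα, edgeR adjusted p = 0.0372). COL1A1 (306 against 232 CPM), COL3A1 (41.7 against 25.5) and PDGFRB (24.85 against 19.1) fell (edgeR adjusted p = 0.0135, 0.00765 and 0.0269). So 1 of the 10 was called higher and 3 lower, beside 2.57% and 2.73% of all tested genes. ACTA2 and THY1 were lower in every LX-2FAP library than in every control but were not called (edgeR adjusted p = 0.145 and 0.200). The groups overlapped for COL1A2, TAGLN, SPARC and LOX, and none of these was called. LOX was lower on average with FAPα (log2 fold change -0.87, edgeR adjusted p = 0.0528), and so was SPARC (-0.13, edgeR adjusted p = 0.102). COL1A2 differed by -0.13 (edgeR adjusted p = 0.833) and TAGLN by 0.12 (edgeR adjusted p = 0.502). CPM is the count of a gene scaled to library size with TMM factors, and FPKM is the authors' level scaled to gene length and library size. Each library was treated as a separate sample. No source says that the libraries came from separate cultures, so p-values measure the spread between libraries, which may be technical.

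The stretch before the transcription start is shown for CSF2, the member that met the fold change cutoff of the study, and for CSF1R, the receptor whose groups did not overlap. Both lie on chromosome 5. The sequences are from RefSeq (GRCh38.p14), hold the 250 bases that end at the annotated start, and are written 5′ to 3′ on the strand of the gene. Capitals mark matches to a kB motif (GGGAA and CC with 3 free bases between them) or a RUNX core (TGTGGT), each searched on both strands. An AP-1 motif (TGANTCA) was searched as well.
CSF2, chr5:132073539-132073788, plus strand: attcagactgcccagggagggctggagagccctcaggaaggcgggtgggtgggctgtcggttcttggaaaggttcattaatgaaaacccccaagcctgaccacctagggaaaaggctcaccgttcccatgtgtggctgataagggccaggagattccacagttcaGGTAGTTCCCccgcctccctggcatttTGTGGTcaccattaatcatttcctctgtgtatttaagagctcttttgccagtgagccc
CSF1R, chr5:150086555-150086804, minus strand: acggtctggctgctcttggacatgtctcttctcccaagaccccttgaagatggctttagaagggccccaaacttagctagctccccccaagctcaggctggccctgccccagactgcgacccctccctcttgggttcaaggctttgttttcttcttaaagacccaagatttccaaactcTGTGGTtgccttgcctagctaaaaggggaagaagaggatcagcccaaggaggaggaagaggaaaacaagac
The CSF2 window held 1 kB match, on the opposite strand, and 1 RUNX match. The CSF1R window held 1 RUNX match, and a second annotated CSF1R start (chr5:150113366-150113615) held 1 AP-1 match instead. Of 34788 promoter windows of this length, 6.01% held the kB motif, 11% the RUNX core and 6.59% the AP-1 motif. The motifs were chosen with the CSF2 sequence in view, so its matches cannot be weighed against these shares. Windows were found for 5 of the 9 members (CSF2, CSF1R, CSF2RA, CSF3R and IL16). Neither CSF2RA nor CSF3R had a match in any window, and IL16 had 1 RUNX match before one start and 2 before the other.

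No member was called different between LX-2FAP and LX-2Vector. Of the 8 members with enough counts to be tested, 0 passed an adjusted p under 0.05 by edgeR, where 5.29% of all tested genes did. CSF1 (lower) and CSF2 (higher) had an unadjusted p under 0.05, so 2 of 8 members beside 22.2% of all tested genes. DESeq2 gave an adjusted p for 2 members (CSF1 and CSF3R) and called 0, beside 9.21% of the 11599 genes to which it gave one. Of the 9 members 1 (CSF1) had an unadjusted DESeq2 p under 0.05, beside 7.34% of the 41175 genes to which it gave a p. Those genes were not filtered on low counts, unlike the genes tested by edgeR, so the 2 shares are not alike. limma-trend on log2(FPKM + 1) called 0 of 8 members, beside 0.0109% of all tested genes, with 2 (CSF1 and CSF2) at an unadjusted p under 0.05, beside 20.0%, and on log2(FPKM + 0.1) the counts of members were the same, beside 0.0109% and 19.9%. The groups did not overlap in CPM for 2 of the 8, CSF2 and CSF1R, and 26.4% of all tested genes showed no overlap. These shares are near the background.

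**Figure D1:**
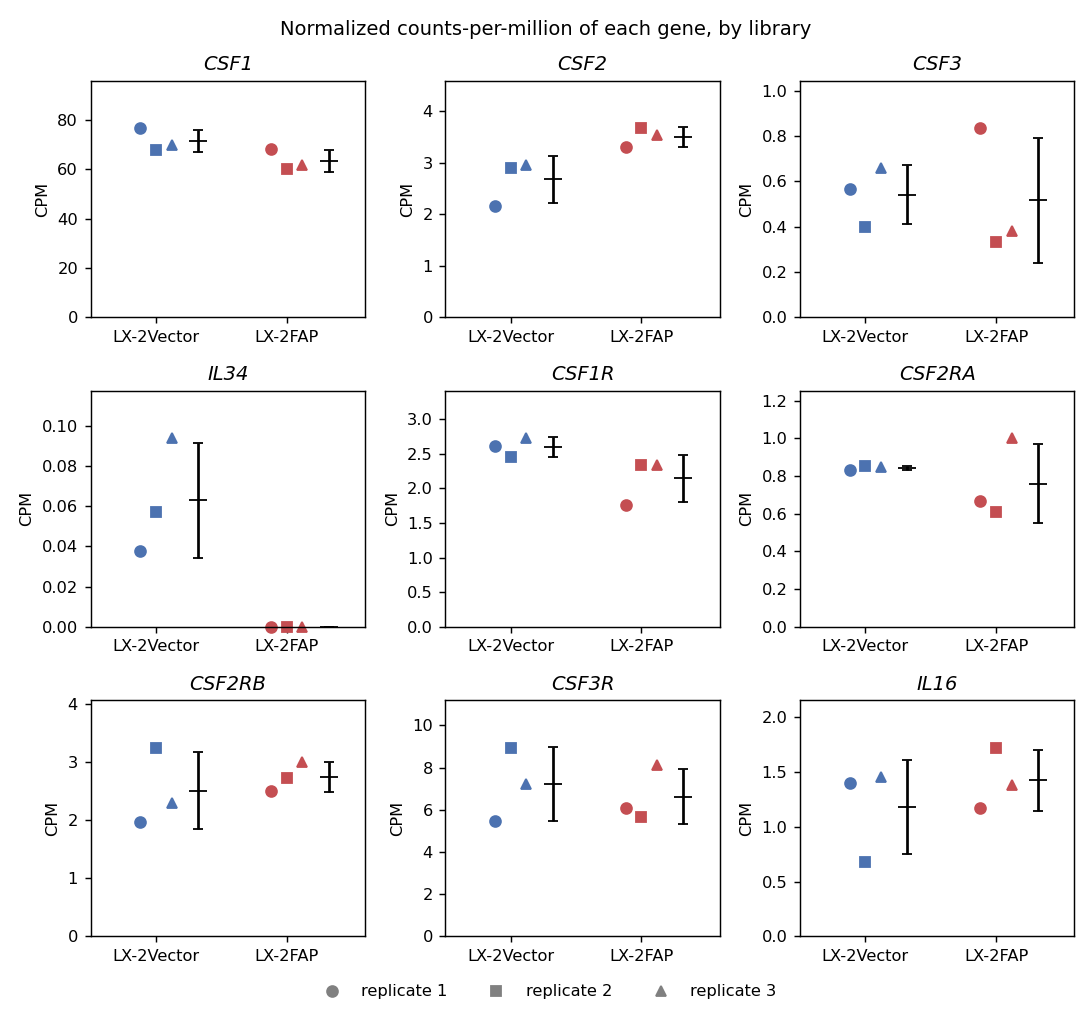
Normalized CPM (vertical axis from 0) of each of the 9 genes in the 3 LX-2Vector (blue) and 3 LX-2FAP (red) libraries, with symbols for the replicate number and black bars for mean ± SD. The groups are separate for CSF2 and CSF1R, touch for CSF1 and are mixed for CSF3, CSF2RA, CSF2RB, CSF3R and IL16, and IL34 rests on 4 reads in all.

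CSF1 was the most abundant ligand transcript. CSF1 (ENSG00000184371, chromosome 1, 109910242 to 109930992 in GRCh38) had 2027, 1195 and 1490 counts in the controls (replicates 1 to 3 in order, as throughout), and 1636, 1080 and 1298 counts with FAPα. As CPM these were 76.7, 68.1 and 70.1 in LX-2Vector and 68.3, 60.04 and 61.96 in LX-2FAP. The lowest control, LX-2Vector replicate 2, and the highest LX-2FAP library, replicate 1, were level, so the CPM ranges just overlapped. In FPKM, which is scaled to all reads without TMM, they did not (13.1 to 14.7 in LX-2Vector and 11.3 to 12.9 in LX-2FAP). On average LX-2Vector stood at 71.6 ± 4.52 CPM and LX-2FAP at 63.4 ± 4.29 (SD, n = 3 each). This was a log2 fold change of -0.18 (SE 0.06, 95% interval -0.30 to -0.05, edgeR adjusted p = 0.0899). That is 0.885 times the control level, with an interval of 0.812 to 0.965 times, and smaller than the study's cutoff of a 1.2-fold difference. CSF1 was lower in each of the 14 alternative fits. It was called in 3 of them, one of which was the fit without LX-2FAP replicate 1 (log2 fold change -0.23, edgeR adjusted p = 0.0224), while without LX-2Vector replicate 1 the log2 fold change was -0.12 (edgeR adjusted p = 0.276).

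CSF2 was the member with the largest fitted difference. CSF2 (ENSG00000164400, chromosome 5, 132073790 to 132076170) had 57, 51 and 63 counts in the controls and 79, 66 and 74 with FAPα. The CPM values were 2.16, 2.91 and 2.96 in LX-2Vector and 3.30, 3.67 and 3.53 in LX-2FAP (2.68 ± 0.449 against 3.50 ± 0.189, SD, n = 3 each), so every LX-2FAP library lay above every control. LX-2Vector replicate 1 was the lowest, well apart from the other two controls. The fitted ratio was 1.32 with a 95% interval of 1.05 to 1.67 (log2 fold change 0.40, edgeR unadjusted p = 0.0225, adjusted p = 0.147). CSF2 was the only member past the study's cutoff of a fold change over 1.2 with an unadjusted p under 0.05, which 1.45% of all tested genes passed upward and 7.89% passed in either direction. The study chose CSF2 on these libraries, so this is no independent evidence. Without LX-2Vector replicate 1 the log2 fold change was 0.25 (edgeR unadjusted p = 0.142) and the cutoff was no longer met. It was also missed when either replicate 2 or replicate 3 of LX-2FAP was left out (0.37, edgeR unadjusted p = 0.0537, and 0.39, edgeR unadjusted p = 0.0507), and by the p of DESeq2 (0.41, unadjusted p = 0.0851). CSF2 was higher in each of the 14 alternative fits and called in 0 of the 13 that gave an adjusted p.

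CSF3 and IL34 were close to the limit of detection. CSF3 (ENSG00000108342, chromosome 17, 40015361 to 40017813) had 15, 7 and 14 counts in LX-2Vector and 20, 6 and 8 in LX-2FAP. As CPM, LX-2FAP replicate 1 was the highest library (0.834) and the other two LX-2FAP libraries were the lowest (0.334 and 0.382), so the LX-2FAP libraries enclosed the controls. The fitted log2 difference was -0.03 with a 95% interval of -0.83 to 0.77 (edgeR adjusted p = 0.9751), or 0.562 to 1.70 times the control level, and a smaller difference was not detectable at this depth. Its sign turned positive when control replicate 3 was left out (0.12), and likewise on leaving out replicate 2 (0.17) or 3 (0.16) of LX-2FAP. IL34 (ENSG00000157368, chromosome 16, 70579895 to 70660682) had 1, 1 and 2 counts in LX-2Vector and 0 in each LX-2FAP library and did not pass the filter on low counts. A count of 0 allows up to 3 counts, or 0.1252 to 0.167 CPM in the LX-2FAP libraries. Both groups lay under that floor, so no fold is given.

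**Figure D2:**
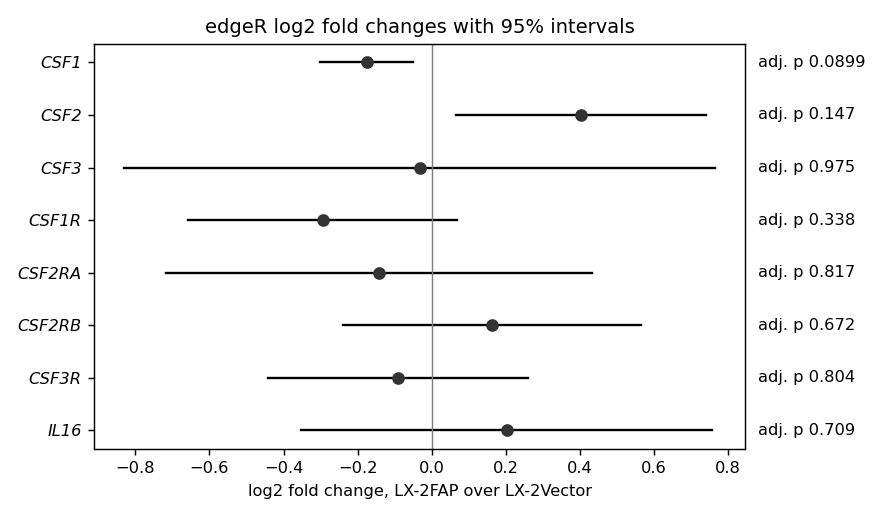
Log2 fold change of LX-2FAP over LX-2Vector (horizontal axis) for the 8 tested genes, with points for the edgeR estimate, lines for the 95% interval and the adjusted p at the right. The intervals of CSF1 (-0.30 to -0.05) and CSF2 (0.06 to 0.74) lie on opposite sides of 0 and the other 6 include 0.

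The mix of ligands was compared within each library, per gene length. CSF2 over CSF1 in FPKM was 0.187, 0.284 and 0.281 in the controls and 0.321, 0.406 and 0.379 with FAPα. All LX-2FAP libraries were above all controls. The mean ratio was 0.251 ± 0.0551 in LX-2Vector and 0.369 ± 0.0435 in LX-2FAP (SD, n = 3 each), which is 1.47 times as high. As a share of the summed FPKM of the 4 ligands, CSF1 made up 78.8% ± 3.59 in LX-2Vector and 72.1% ± 1.84 in LX-2FAP. CSF2 made up 19.6% ± 3.56 and 26.5% ± 2.49. The sum itself was 17.5 ± 0.341 FPKM in LX-2Vector and 16.6 ± 0.739 FPKM in LX-2FAP. These are descriptions with no test, since the ratio was formed from members whose values were already known.

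Receptor transcripts were scarce and none was called. CSF1R (ENSG00000182578, chromosome 5, 150053291 to 150113372), the receptor of CSF1 and IL34, had 69, 43 and 58 counts in LX-2Vector and 42, 42 and 49 in LX-2FAP. The CPM values were 2.61, 2.45 and 2.73 against 1.75, 2.34 and 2.34, so every LX-2FAP library was below every control, LX-2FAP replicate 1 by the most. LX-2FAP differed by a log2 fold change of -0.29 (SE 0.17, 95% interval -0.66 to 0.07, edgeR adjusted p = 0.338). It was negative in each of the 14 alternatives and called in 0 of the 13 that gave an adjusted p. Without LX-2FAP replicate 1 it was -0.15 (edgeR unadjusted p = 0.409, adjusted p = 0.664). In bulk RNA, fewer cells with a transcript and less transcript per cell cannot be told apart.

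CSF2RA (ENSG00000198223), the α chain of the GM-CSF receptor, lies in the pseudoautosomal region, where the X and Y copies have the same sequence (chromosome X, 1268800 to 1310381). It had 22, 15 and 18 counts in LX-2Vector and 16, 11 and 21 in LX-2FAP, or 0.833 to 0.855 CPM against 0.612 to 1.00 CPM, and the LX-2FAP libraries lay on both sides of the controls. Its log2 fold change was -0.14 with a 95% interval of -0.72 to 0.43 (edgeR adjusted p = 0.817). How reads that fit both copies were counted is not given in the sources used here.

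CSF2RB (ENSG00000100368, chromosome 22, 36913628 to 36940449), the β-common chain, had 52, 57 and 49 counts in LX-2Vector and 60, 49 and 63 in LX-2FAP. LX-2Vector replicate 2 was the highest of all libraries (3.25 CPM) and LX-2Vector replicate 1 the lowest (1.97 CPM), so the controls enclosed the LX-2FAP libraries (2.50 to 3.01 CPM). The fit gave a log2 fold change of 0.16 with a 95% interval of -0.24 to 0.56 (edgeR adjusted p = 0.672). Without LX-2Vector replicate 1 it was -0.0011.

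CSF3R (ENSG00000119535, chromosome 1, 36466043 to 36483278), the G-CSF receptor, was the receptor gene with the most reads. It had 144, 157 and 154 counts in LX-2Vector and 146, 102 and 170 in LX-2FAP. The CPM values were 5.45, 8.95 and 7.24 against 6.09, 5.67 and 8.12, and the groups were mixed. Its fitted log2 fold change was -0.09 with a 95% interval of -0.44 to 0.26 (edgeR adjusted p = 0.804), and it was 0.08 without LX-2Vector replicate 2. Its transcript was 2.53 to 5.91 times that of its ligand CSF3 in LX-2Vector and 1.92 to 5.60 times in LX-2FAP, in FPKM.

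These receptors are known from blood cells, so markers of blood cells were read in the same libraries. All 10 macrophage or monocyte markers had reads, from 21 in total for CD68 to 684 for LYZ, and their summed CPM was 16.3 to 21.5 in the controls and 18.4 to 22.02 with FAPα. All 7 neutrophil markers had reads, from 6 for ELANE to 1299 for S100A9, with sums of 20.3, 30.03 and 23.98 CPM in the controls and 28.2, 27.9 and 25.6 with FAPα. LX-2Vector replicate 1 was lowest and LX-2Vector replicate 2 highest in that sum, as in CSF3R and CSF2RB. The other receptors did not follow it. CSF1R was lowest in LX-2FAP replicate 1 and highest in LX-2Vector replicate 3, and CSF2RA was lowest in LX-2FAP replicate 2 and highest in LX-2FAP replicate 3. The macrophage sum was also lowest in LX-2Vector replicate 1, but it was highest in LX-2FAP replicate 2. The haemoglobin genes HBB, HBA1 and HBA2, looked at after the data were seen, summed to 329.7, 370.1 and 637 CPM in the controls and 620.4, 500.2 and 137 with FAPα. The T cell markers CD3D, CD3E, CD2, CD8A and TRAC had 21 to 76 reads in total, while IL7R, the IL-7 receptor α chain, had 32372 and stood at 39.9 ± 2.88 FPKM in the controls and 43.9 ± 2.71 with FAPα (edgeR adjusted p = 0.0737). Of the hepatocyte markers ALB had 13 reads, APOA1 1, TF 18 and TTR 0, and SERPINA1 had 1559 (log2 fold change -0.28, edgeR unadjusted p = 0.00721, adjusted p = 0.0809). None of the macrophage, neutrophil, T cell, hepatocyte or haemoglobin genes tested was called between the groups. Of 4 tested endothelial markers 1, VWF, fell with FAPα (-1.06 on the log2 scale, edgeR adjusted p = 0.0268), beside 2.73% of all tested genes called lower. VWF had 241 reads in total. PECAM1 (log2 fold change 0.05), KDR (-0.20) and TEK (-0.10) were not called. The part of blood cell transcripts in the receptor reads was not tested.

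IL16 (ENSG00000172349, chromosome 15, 81159575 to 81314058), the CD4 ligand, had few reads for a long gene and shares exons with a neighbour. It had 37, 12 and 31 counts in LX-2Vector and 28, 31 and 29 in LX-2FAP. LX-2Vector replicate 2 was low and the other 5 libraries lay between 1.17 and 1.72 CPM, so the groups overlapped. The estimate on the log2 scale was 0.20 with a 95% interval of -0.35 to 0.76 (edgeR adjusted p = 0.709). Without LX-2Vector replicate 2 it was -0.02. The study listed IL16 among the secreted-factor genes raised with FAPα in its sequencing of these lines. Here IL16 did not meet the study's cutoff, with a fitted ratio of 1.15 (edgeR unadjusted p = 0.450). An unadjusted p under 0.05 was reached in 0 of 14 alternative fits. The reason for this difference from the study was not tested. Of the exon bases of IL16, 36% are also exon of STARD5, a lipid transfer protein gene on the opposite strand. STARD5 had 36, 13 and 24 counts in LX-2Vector and 31, 25 and 25 in LX-2FAP, so it too was lowest in LX-2Vector replicate 2, and its totals were close to those of IL16 (154 and 168). The use of strand in counting is not given in the sources used here, and reads of the shared stretch cannot be told apart without it.

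**Figure D3:**
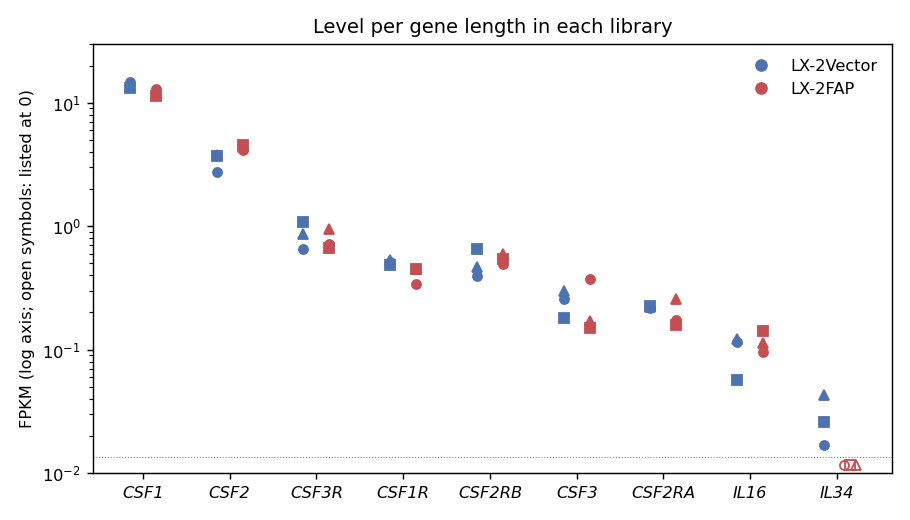
FPKM (vertical log axis) of the 9 genes in each LX-2Vector (blue) and LX-2FAP (red) library, ordered by the LX-2Vector mean, with open symbols under the dotted line for values listed at 0 and the same replicate symbols as in the CPM plot. CSF1 and CSF2 stand at 2.74 FPKM or more in every library and the other genes at 1.07 FPKM or less.

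Set in order by level per gene length, the LX-2Vector means were 13.8 ± 0.806 FPKM for CSF1, 3.42 ± 0.588 for CSF2, 0.863 ± 0.212 for CSF3R, 0.508 ± 0.0267 for CSF1R and 0.507 ± 0.136 for CSF2RB (SD, n = 3). Lower still were CSF3 (0.246 ± 0.0595 FPKM), CSF2RA (0.222 ± 0.0039), IL16 (0.0983 ± 0.0357) and IL34 (0.0284 ± 0.013). The ranges of neighbours overlapped for CSF1R and CSF2RB and for CSF3 and CSF2RA, so these pairs cannot be ordered, and the others were apart in LX-2Vector. CSF1 was higher than 80.35% of all tested genes in FPKM and CSF2 higher than 50.3%. CSF3R, CSF1R, CSF2RB, CSF3 and CSF2RA stood above 24.8%, 16.5%, 16.5%, 7.39% and 6.41% of them, and IL16 above 1.39%. In LX-2FAP 7 of the 9 kept their rank, and CSF1R (0.411 FPKM) and CSF2RB (0.543 FPKM) changed places. CSF1 over its receptor CSF1R was 27.2 ± 1.82 in LX-2Vector and 29.9 ± 7.31 in LX-2FAP.

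Genes around the CSF system were read from lists of binding partners, signal carriers, inhibitors and regulators of the members. Of 56 such genes 51 were tested, and 1 rose and 2 fell in LX-2FAP, beside 2.57% of all tested genes called higher and 2.73% called lower. Their median log2 fold change was -0.01, as over all tested genes (-0.01).

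**Figure D4:**
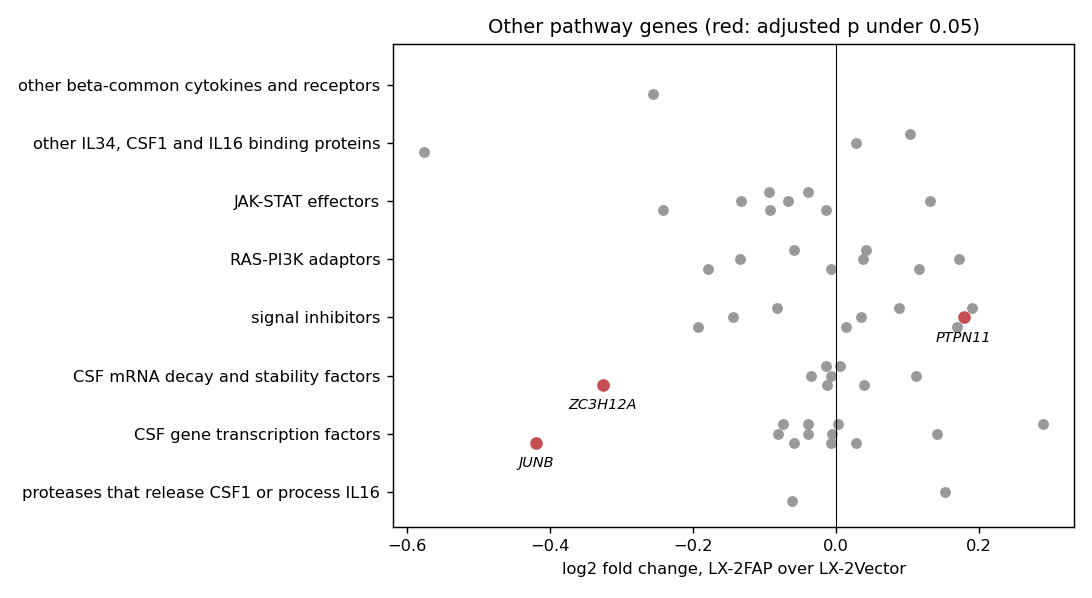
Log2 fold change of LX-2FAP over LX-2Vector (horizontal axis) of the 51 tested pathway genes, 1 point a gene, by list (vertical axis), with genes at an edgeR adjusted p under 0.05 in red and named. PTPN11 (0.18) lies to the right of 0, ZC3H12A (-0.33) and JUNB (-0.42) lie to the left, and the other points are grey.

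Upstream of the ligands, edgeR called 1 of 12 tested transcription factors known to act on CSF genes lower and none higher. Of all tested genes, 2.73% were called lower and 2.57% higher. JUNB, a subunit of AP-1, was at 17.7, 19.3 and 19.3 CPM in the controls and at 14.3, 13.9 and 13.8 with FAPα, so the groups were apart (-0.42 ± 0.08 SE on the log2 scale, edgeR adjusted p = 0.00823). Without LX-2FAP replicate 3 the log2 fold change of JUNB was -0.41 (edgeR adjusted p = 0.0748), in a fit that called 26 genes in all. FOSL1, another AP-1 subunit, stood at 177 FPKM in LX-2Vector, where JUNB stood at 10.3. With FAPα it was higher on average (log2 fold change 0.14, edgeR unadjusted p = 0.0106, adjusted p = 0.0987), and the groups overlapped. FOSL1 was called higher by DESeq2, and by edgeR with no filter on low counts and without LX-2Vector replicate 1. Of 8 factors that decay or stabilise cytokine mRNA, 1 fell, beside the same 2.73% of all tested genes. ZC3H12A, also called Regnase-1, an endonuclease that cleaves cytokine mRNA, was at 20.4, 20.2 and 21.2 CPM in the controls and at 17.9, 15.5 and 15.8 with FAPα (-0.33 ± 0.08 SE on the log2 scale, edgeR adjusted p = 0.0246). Its call was lost when any library but LX-2FAP replicate 1 was left out (log2 fold change -0.33 to -0.29, edgeR adjusted p = 0.051 to 0.154).

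Downstream of the receptors, 1 of 9 tested signal inhibitors rose, beside 2.57% of all tested genes called higher. PTPN11, the phosphatase SHP-2, which also carries positive signals from growth factor receptors, was at 542, 571 and 551 CPM in the controls and at 598, 653 and 634 with FAPα (0.18 ± 0.04 SE on the log2 scale, edgeR adjusted p = 0.0233). Its call was lost without LX-2Vector replicate 1 or 3 and without LX-2FAP replicate 2 or 3 (log2 fold change 0.15 to 0.18, edgeR adjusted p = 0.0576 to 0.149). None of 8 JAK-STAT effectors was called by edgeR, with 2 at an unadjusted p under 0.05. PIM1 was lower (log2 fold change -0.24, edgeR unadjusted p = 0.00494, adjusted p = 0.067). JAK2 was higher (0.13, edgeR unadjusted p = 0.0444, adjusted p = 0.211). The groups did not overlap for either. PIM1 was called with library size alone, with no filter on low counts and without LX-2FAP replicate 1. JAK1 (log2 fold change -0.04) and STAT3 (-0.09) were among the most abundant effectors. None of 8 RAS and PI3K adaptors was called by edgeR either, with 2 at an unadjusted p under 0.05, and GRB2 (0.04), SHC1 (-0.06) and SOS1 (-0.01) had the most reads. For both lists the 2 of 8 stand beside the 22.2% of all tested genes at that threshold. limma-trend called 0 of the 51 genes, beside 0.0109% of all tested genes. DESeq2 called 4 of the 42 listed genes to which it gave an adjusted p, beside 9.21% of all genes with one.

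Among binding partners, CD4, the receptor of IL16, was at 4.09, 3.87 and 4.61 CPM in the controls and at 3.25, 2.00 and 3.06 with FAPα, and every LX-2FAP library lay below every control. The log2 fold change of CD4 was -0.58 (SE 0.17), which missed the threshold (edgeR adjusted p = 0.0552). SDC1, a proteoglycan that binds IL34, differed by 0.10 on the log2 scale (edgeR adjusted p = 0.177), and CD9 by 0.03 (edgeR adjusted p = 0.811). ADAM17, a protease that sheds membrane proteins, differed by -0.06 (edgeR adjusted p = 0.532). Of the other users of the β-common chain, IL3 had 0 counts in all 6 libraries, IL5 had 5 in total and IL5RA 11. IL3RA, the α chain of the IL3 receptor, was tested and differed by -0.26 on the log2 scale (edgeR adjusted p = 0.379).

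The genes whose log2 CPM followed a member most closely over the 6 libraries were listed for the members with a mean of at least 50 counts. For CSF1 these were TUBB (Pearson r = 0.999), MINK1 (0.996) and SSH3 (0.995), and 604 of 11555 candidate genes had an r over 0.9. For CSF2 they were PDS5B (0.996), ACER3 (0.995) and ELOVL7 (0.994), with 533 candidates over 0.9. For CSF1R they were CD226 (0.998), WASH8P (0.984) and MAP3K8 (0.981), for CSF2RB ZC3H8 (0.994), ANKRD20A5P (0.991) and CHURC1 (0.989), and for CSF3R ANKRD36B (0.987), ZNF587 (0.980) and TMEM251 (0.968). These 3 receptor genes had 43, 77 and 33 candidates over 0.9. With 6 libraries such values are a description and carry no test.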

How the data were processed

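RNA was sequenced from 3 LX-2Vector and 3 LX-2FAP libraries. Per the labels ribosomal RNA was depleted, while the methods also name poly(A) isolation, and which applied is unclear. The authors deposited read counts per gene and FPKM values, which they computed from the gene length and the counts. The submitters' processing notes name HISAT2 2.0.5, featureCounts 1.5.0-p3, DESeq2 1.16.1, edgeR and the build hg18. The table holds no coordinates. The gene length implied by counts and FPKM equalled the merged exon length of GENCODE release 29 (GRCh38) for 6 of 9 members, and coordinates here are from that release.

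Counts were tested in R 4.3.3 with edgeR 4.0.16 (quasi-likelihood test, TMM, minimum count of 10 and minimum total of 15) across all 18275 genes that passed, with Benjamini-Hochberg adjustment and a threshold of 0.05. SEs and 95% intervals come from that fit. Floors use 3 counts per library and, as the intervals, cover counting error or library spread only. An exact permutation test of 3 against 3 libraries cannot go below p = 0.1, so none was used for single genes. Alternatives were DESeq2 1.42.0, its size factors, library size alone, no filter, at least 10 counts in every sample, limma 3.58.1 (limma-trend) on log2 FPKM with a pseudocount of 1 or 0.1, a replicate block, and leaving out each library. The script was tested on simulated data. The members and the lists were chosen with earlier results of these data known, and the promoter motifs with the CSF2 sequence in view. All 9 members were named, and genes of a list were named where called or else the 3 with the most reads. JAK2 and PIM1 were named in addition, for their unadjusted p. Some genes of the lists are not reported here by name. Genes most like a member had a mean of at least 100 counts and the highest Pearson correlation. Totals of 17355700 to 26352060 counts per library limit scarce genes such as IL34.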

Additional observations from a re-analysis of the deposited data

How the results depend on the processing

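The direction of CSF1, CSF2, CSF1R and CSF2RA was the same in all alternatives that gave a value, and FAP remained called in each (log2 fold change 6.27 to 8.45). CSF1 passed the threshold with no filter on low counts (-0.18, edgeR adjusted p = 0.0333), with the replicate block (-0.18, adjusted p = 0.0427) and without LX-2FAP replicate 1 (-0.23, adjusted p = 0.0224), so that 1 member was called in each of these and 1 by the study's cutoff (CSF2) against 0 otherwise. Over its 14 alternatives the adjusted p of CSF1 ran from 0.0224 to 0.334 and that of CSF2 from 0.129 to 0.414 where one was given, since DESeq2 gave one only for CSF1 and CSF3R among the members. With each library left out in turn the log2 fold change was -0.23 to -0.12 for CSF1, 0.25 to 0.50 for CSF2, -0.61 to 0.17 for CSF3, -0.37 to -0.15 for CSF1R, -0.39 to -0.03 for CSF2RA, -0.0011 to 0.37 for CSF2RB, -0.28 to 0.08 for CSF3R, -0.02 to 0.35 for IL16 and 8.17 to 8.45 for FAP, and 0 to 1 members and 0 to 5 other pathway genes were called. Signs turned for CSF3 on leaving out control replicate 3 (0.12) or replicates 2 (0.17) or 3 (0.16) of LX-2FAP, for CSF2RB without control replicate 1 (-0.0011), and without control replicate 2 for CSF3R (0.0847) and IL16 (-0.0157). The cause was not tested. The 3 other pathway genes called became 5 with library size alone, 6 with no filter and 0 with either limma-trend fit. Of all genes, 967 were called with every library, 26, 129 or 1949 without replicate 3, 2 or 1 of LX-2FAP, 391 or 395 without control replicate 1 or 3, 1606 with no filter and 2 by limma-trend. In CPM 5 of 9 members kept the rank they had in FPKM, and 7 did so in LX-2FAP. CSF3 had no value with at least 10 counts in every sample.

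Same-numbered libraries did not deviate together (correlations of -0.033, 0.039 and -0.0077), and pairs with different numbers ran from -0.10 to 0.11. No source says whether same-numbered libraries were prepared together. With 3 libraries per group these correlations cannot decide it. Beyond CSF1 the replicate block changed no call among the members and the named pathway genes. Depth limits CSF3 (6 to 20 counts per library) and IL34 (0 to 2).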
